A study of Mus musculus with 12 samples.

Results

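The genes described here encode the costamere of heart muscle, its integrins and the dystrophin complex. They are 38 genes chosen by name, out of 49568 rows of a table of read counts from mouse cardiomyocytes, and all 38 were among the 14712 genes with enough reads to be tested. The study asked what myocardin-related transcription factors do in heart muscle cells under pressure overload. RNA was sequenced in 12 libraries, 3 in each of 4 groups, sham and TAC in control mice and sham and TAC in dKO mice. TAC is trans-aortic constriction, a narrowing of the aorta that raises the pressure load on the left ventricle, and sham is the surgery without it.

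Control mice carried alphaMHC-MerCreMre/+, a tamoxifen-inducible Cre driven by the promoter of the cardiac alpha myosin heavy chain. The dKO mice carried MHC-MerCreMre/+ with Mrtf-a-/- and Mrtf-bflox/flox, so that Mrtf-a was absent from all cells and Mrtf-b was to be deleted only where Cre was active. All mice were male and got tamoxifen on 3 days (30 ug/g each) at an age of 8 weeks. The labels put the operation at 10 weeks, though another text of the submitters has 8 weeks, and cells were isolated at 11 weeks, 7 days after it. Cells were released by perfusion of the heart and cardiomyocytes were enriched by sedimentation for 10 min, which can leave other cells. The sources used here do not say that each library came from a separate animal, so p-values measure the spread between these libraries, which may be technical in part.

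Costameres are protein assemblies that join the Z-discs at the edge of a muscle cell to the surrounding matrix. Integrins, pairs of an alpha and a beta chain, bind laminin or fibronectin outside the cell, and talin, kindlin and vinculin tie their tails to actin. A second link runs from laminin through dystroglycan and the sarcoglycans to dystrophin or utrophin. Myocardin-related transcription factors (MRTFs) are held in the cytoplasm by monomeric actin. When actin polymerises they enter the nucleus, where they act with serum response factor on genes of the actin cytoskeleton and of adhesion.

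Total counts lay between 20082000 and 29675212 per library, and levels are given as CPM, counts divided by the scaled size of the library. Mkl1, the gene of Mrtf-a, had 7.59 to 16.01 CPM in the 6 control libraries and 2.15 to 3.20 in the 6 dKO libraries. Mkl2, the gene of Mrtf-b, had 30.1 to 44.1 CPM in control and 15.2 to 28.1 in dKO, a weak check because reads outside the floxed part are counted too. Of 15 cardiomyocyte markers none was at 0, and Myh6 lay between 11154 and 28100 CPM. Fibroblast markers were also present, with sums of 1101 to 1948 CPM (sham) and 1684 to 11289 (TAC) in control libraries and of 1224 to 1692 (sham) and 3590 to 4584 (TAC) in dKO libraries. In a bulk sample, fewer cells of a type and less RNA per cell cannot be told apart.

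Libraries dKO sham replicate 1 and dKO TAC replicate 2 stood apart from their groups in a way that touched these genes. Across 9761 protein-coding genes, the deviation from the other libraries of the group fell with exon length in both (Spearman rho across genes -0.622 and -0.598), against -0.104 to 0.114 in the 6 control libraries. The other 4 dKO libraries, each compared with a group that holds one of these, had the opposite sign. The 38 genes followed the same trend, with rho of -0.642 and -0.488. Of the 18 genes with at least 8000 nt of exon, 17 were lower in dKO sham replicate 1 than the mean of its group's other libraries (median log2 -0.70) and 14 were lower in dKO TAC replicate 2 (-0.36). The 20 shorter genes had medians of -0.06 and -0.16. For several genes that these libraries moved, estimates are given with and without both of them. For others, among them Utrn, Cav3, Dag1, Tns1, Itga1 and Itga6, only estimates from all libraries are given. A fit without both leaves only the other 2 libraries in each dKO group. The pair was left out because it stood apart, so a smaller SE or adjusted p there is not firmer evidence.

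**Figure D1:**
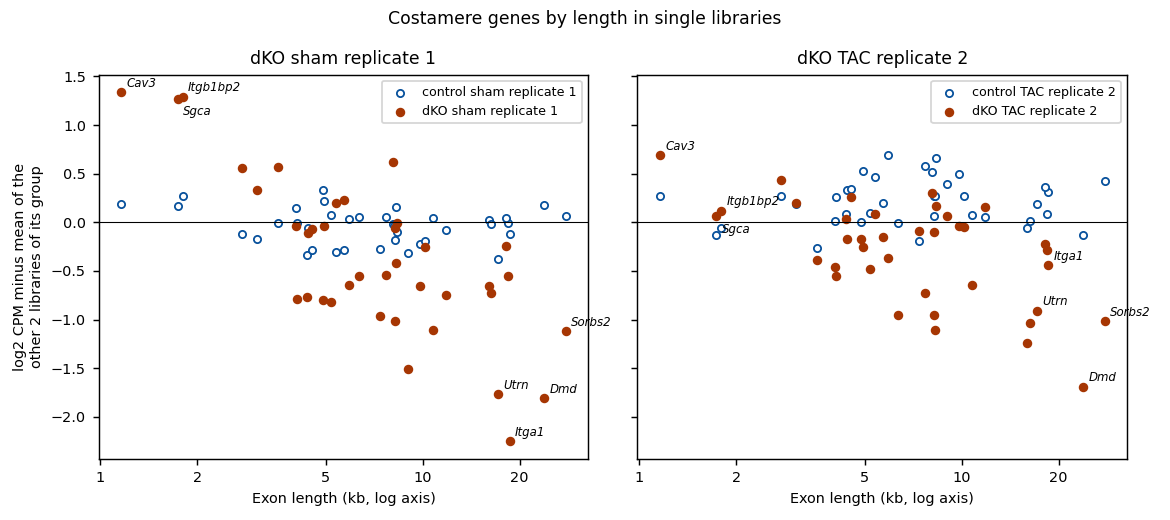
Deviation of each of the 38 genes from the mean of the other 2 libraries of its group (log2 CPM, y axis) against exon length (kb, log x axis), in dKO sham replicate 1 and dKO TAC replicate 2 (filled) and in the control library of the same surgery and number (open). The long genes Itga1, Dmd and Utrn lie lowest in dKO sham replicate 1, and the short genes Cav3, Sgca and Itgb1bp2 lie highest.

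The order of the genes in unloaded control cells was read per length, as CPM per kb of exon, because long transcripts collect more reads. The length used was the union of all annotated exons of a gene, which can exceed that of the transcript present. Levels of different genes can therefore be compared only roughly. Melusin (Itgb1bp2), a muscle protein that binds the tail of integrin beta 1, led at 103 ± 14.6 CPM per kb (SD, n = 3), beside Itgb1 itself at 101 ± 4.92. The difference between this pair was smaller than the spread of melusin. Tensin 1 (Tns1, 75.7), alpha-sarcoglycan (Sgca, 67.7), dystroglycan (Dag1, 66.2) and caveolin 3 (Cav3, 44.3) came next. Among the alpha chains the laminin receptor Itga7 was highest at 22.9 ± 1.94 CPM per kb, above the fibronectin receptor Itga5 at 12.8 ± 1.23. Src (0.698), Itga8 (0.507) and Itgb3 (0.281) were lowest. Dystrophin (Dmd, 5.06) and utrophin (Utrn, 5.45) stood side by side by this measure, within the spread of either.

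**Figure D2:**
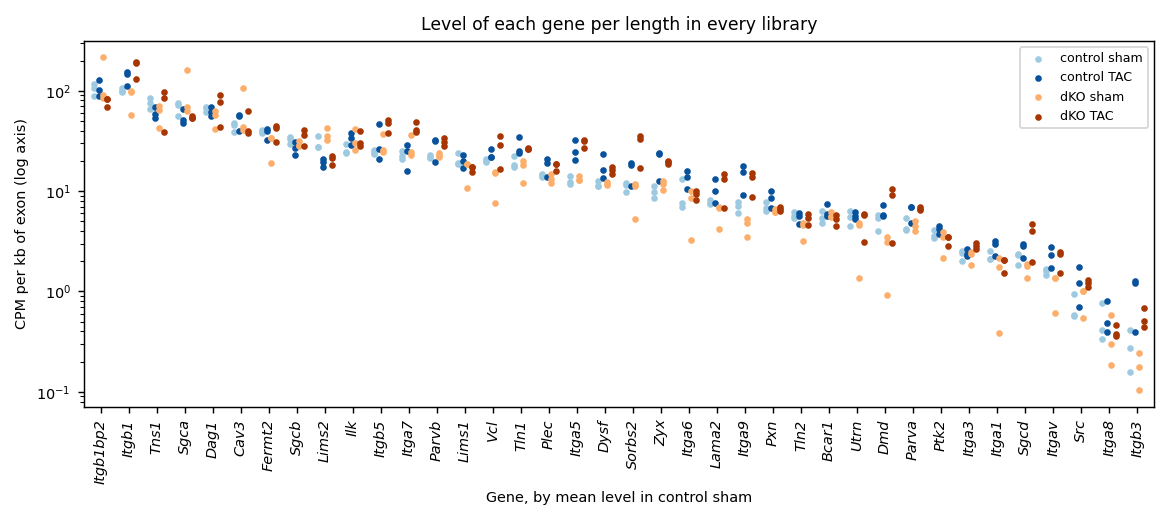
Level of each of the 38 genes per kb of exon (CPM per kb, log axis) in each of the 12 libraries, 3 points per group, ordered by the mean in control sham. The genes span from Itgb1bp2 and Itgb1 above 100 to Itgb3 at 0.281 CPM per kb in control sham.

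Promoters were examined because MRTFs work through the CArG box, the DNA element that serum response factor binds. RefSeq promoter windows (250 bases before to 50 after the start of transcription, GRCm38.p6) were held for 28 of the 38 genes, 38 windows in all. A CArG box was found in 4 of the 38 windows (10.5%), those of vinculin (Vcl), kindlin-2 (Fermt2), Dmd and the laminin alpha 2 chain (Lama2), against 1.63% of all 32851 windows. The motif GGAATG of the TEAD factors, read on both strands, was in 4 windows (10.5%), those of Cav3, Itgb1, Sgcd and Vcl, against 14.7% of all. A match is a description of letters and not evidence of binding. The 250 bases before the start site are shown for the 4 genes with a CArG box, because they hold the element, 5′ to 3′ on the gene's strand with the CArG box in capitals. They lie at chr14:20929148-20929397 (plus strand), chr14:45530066-45530315 (minus), chrX:82948620-82948869 (plus) and chr10:27616943-27617192 (minus).
Vcl: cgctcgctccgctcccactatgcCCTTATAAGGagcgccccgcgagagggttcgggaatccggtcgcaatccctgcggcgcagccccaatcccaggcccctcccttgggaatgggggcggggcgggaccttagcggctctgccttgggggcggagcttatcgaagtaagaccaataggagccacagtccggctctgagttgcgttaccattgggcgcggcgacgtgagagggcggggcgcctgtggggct
Fermt2: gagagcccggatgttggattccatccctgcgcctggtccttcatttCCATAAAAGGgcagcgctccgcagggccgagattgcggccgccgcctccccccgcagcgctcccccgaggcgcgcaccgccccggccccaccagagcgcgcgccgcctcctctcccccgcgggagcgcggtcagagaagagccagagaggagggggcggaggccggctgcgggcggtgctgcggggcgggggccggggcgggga
Dmd: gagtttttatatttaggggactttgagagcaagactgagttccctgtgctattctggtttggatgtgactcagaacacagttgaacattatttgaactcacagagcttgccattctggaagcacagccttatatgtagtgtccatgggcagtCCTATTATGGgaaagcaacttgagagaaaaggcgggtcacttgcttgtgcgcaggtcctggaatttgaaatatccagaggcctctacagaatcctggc
Lama2: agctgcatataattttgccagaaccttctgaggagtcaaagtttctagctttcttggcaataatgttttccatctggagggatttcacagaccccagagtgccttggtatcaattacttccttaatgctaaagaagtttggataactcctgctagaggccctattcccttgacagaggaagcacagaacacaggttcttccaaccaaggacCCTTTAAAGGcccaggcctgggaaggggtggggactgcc

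The first question was how these genes responded to pressure overload. Averaged over both genotypes, 12 of the 38 rose after TAC and 1 fell (edgeR quasi-likelihood test with Benjamini-Hochberg adjustment over all genes, adjusted p under 0.05), that is 34.2% against 16.6% of all genes tested (9.53% higher and 7.08% lower). The genes that rose were the integrin chains Itga5, Itga9, Itgav, Itgb1 and Itgb3, the actin linkers Tln1, Zyx and Sorbs2, and Parva, Sgcd, Lama2 and Dysf. The gene that fell was Lims2. By role, 3 of 8 alpha chains, 2 of 3 beta chains, 3 of 8 actin linkers, 1 of 5 proteins of the ILK platform, 2 of 7 of the dystrophin complex and its ligand and 1 of 2 membrane proteins rose. The median log2 change of the 38 was 0.36, against -0.0063 over all genes, and 32 had a positive estimate. The 38 genes were chosen with earlier results of these data known, so these shares describe them and do not test them as a set.

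Within single genotypes fewer passed. In control 2 rose, Itga5 and Zyx (5.26%, against 2.25% of all genes, of which 1.9% higher). In dKO 5 rose, Itga5, Itga9, Itgb1, Sgcd and Sorbs2, and Lims2 fell (15.8%, against 7.39%, of which 4.2% higher and 3.19% lower). Median estimates were 0.30 in control and 0.44 in dKO, beside 0.00065 and -0.0062 over all genes. Groups of 3 did not overlap for 9 of the 38 in control and for 21 in dKO, beside 21.8% and 30.7% of all genes. Without the pair of libraries with a length trend, 15 rose and 1 fell over both genotypes, 3 rose and 1 fell in control and 9 rose and 1 fell in dKO. The calls over all genes grew too, to 3272, 771 and 1580 of 14923, from 2444, 331 and 1087 of 14712.

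**Figure D3:**
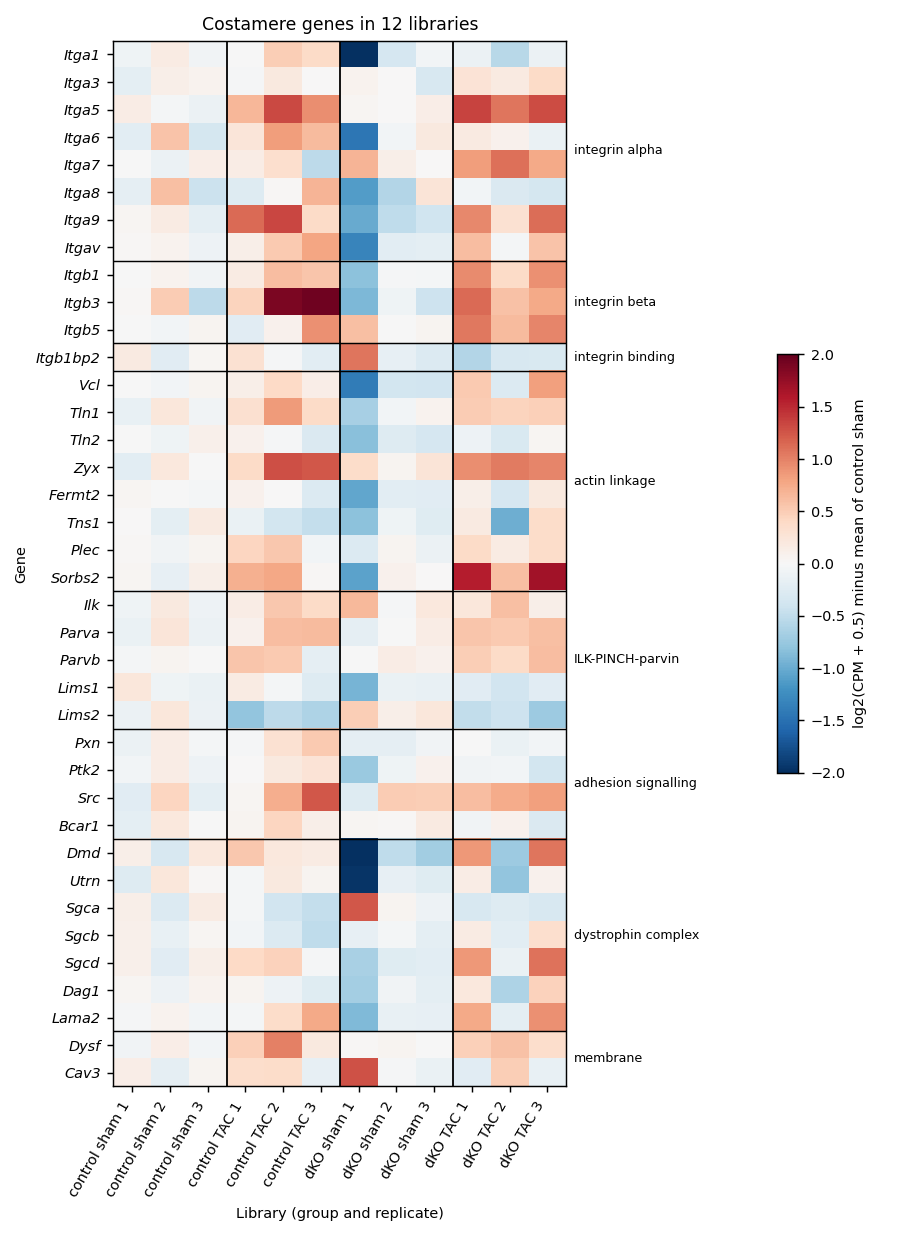
Each of the 38 genes (rows, grouped by role) in each of the 12 libraries (columns), coloured by log2(CPM + 0.5) minus the mean of control sham, from -2 (blue) to 2 (red). Itga5, Itgb3 and Zyx are red in the TAC columns, Lims2 is blue there, and the column of dKO sham replicate 1 is blue for long genes such as Dmd, Utrn and Itga1.

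Integrin alpha chains decide which matrix protein a receptor binds. Itga5, which with beta 1 forms the main fibronectin receptor, had 69.7, 61.3 and 58 CPM with sham and 99.9, 158 and 121 with TAC in control, and 64.4, 63.4 and 69.2 with sham and 161, 133 and 155 with TAC in dKO. All 6 TAC libraries lay above all 6 sham libraries. It rose 2.004-fold in control (log2 1.003 ± 0.18, SE) and 2.28-fold in dKO (1.19 ± 0.18), with edgeR adjusted p of 0.019 and 0.00493. Itga9, whose receptor binds tenascin and osteopontin, had 54.9, 60.2 and 46.7 CPM with sham and 118, 136 and 69.9 with TAC in control, and 26.5, 37.4 and 40.4 with sham and 105, 66.6 and 116 with TAC in dKO. In each genotype the lowest TAC library stayed above the highest sham library. It rose by a log2 of 1.46 ± 0.28 in dKO (edgeR adjusted p = 0.0117) and over both genotypes by 1.23 ± 0.20 (adjusted p = 0.00198), with 1.0 ± 0.28 in control (adjusted p = 0.0873).

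Itgav, the partner of beta 3 and beta 5 in vitronectin receptors, had 17.2, 17.9 and 15.8 CPM with sham and 18.4, 24.7 and 29.6 with TAC in control, and 6.51, 14.6 and 14.7 with sham and 26.4, 16.5 and 25.3 with TAC in dKO. The TAC libraries lay above sham in each genotype, narrowly so in control. The rise passed over both genotypes (log2 0.72 ± 0.21, edgeR adjusted p = 0.0359) and in neither alone. In dKO it was 0.92 ± 0.30 (adjusted p = 0.0757), and 0.82 ± 0.19 without the libraries with a length trend (adjusted p = 0.0283).

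Itga7, the laminin receptor chain of adult muscle, had 183, 171 and 202 CPM with sham and 205, 233 and 128 with TAC in control, and 296, 199.5 and 187 with sham and 331, 396 and 311 with TAC in dKO. Here the 3 dKO TAC libraries lay above the other 9, with a log2 of 0.61 ± 0.24 for TAC in dKO and 0.03 ± 0.24 in control, neither past the test (edgeR adjusted p = 0.137 and 0.976). The other alpha chains, Itga1, Itga3, Itga6 and Itga8, did not pass, with estimates from 0.05 to 0.54 in control and from 0.15 to 0.38 in dKO.

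Beta chains carry the signal to the cytoskeleton. Itgb1, the shared partner of most alpha chains in cardiomyocytes, had 409, 433 and 393 CPM with sham and 459, 631 and 604 with TAC in control, and 233, 403 and 400.4 with sham and 790.3, 534 and 772 with TAC in dKO. TAC and sham did not overlap in either genotype. It rose 1.67-fold over both genotypes (log2 0.74 ± 0.17, edgeR adjusted p = 0.0147) and 2.02-fold in dKO (1.02 ± 0.25, adjusted p = 0.0297), beside 0.46 ± 0.25 in control (adjusted p = 0.388). Itgb3, a chain of the vitronectin receptor, was low throughout, with 1.60, 2.44 and 0.930 CPM with sham and 2.32, 7.15 and 7.47 with TAC in control, and 0.614, 1.44 and 1.05 with sham and 4.03, 2.59 and 2.998 with TAC in dKO. Control TAC replicates 2 and 3 stood above all other libraries, and control TAC replicate 1 lay within the control sham range. Over both genotypes Itgb3 rose 3.21-fold (log2 1.68 ± 0.34, edgeR adjusted p = 0.0071).

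Itgb5, the other partner of Itgav, had 86.5, 83.7 and 90.3 CPM with sham and 74.3, 92.3 and 165 with TAC in control, and 132, 86.7 and 90.5 with sham and 181, 134 and 171 with TAC in dKO. The dKO groups did not overlap, but the highest dKO sham library lay close to the lowest dKO TAC library, and the estimate did not pass (log2 0.65 ± 0.27 in dKO, edgeR adjusted p = 0.147). Melusin (Itgb1bp2), which binds the beta 1 tail and is known as a guard against overload, had 209.6, 158 and 190.3 CPM with sham and 228, 182 and 159 with TAC in control, and 387, 165 and 152 with sham and 123, 148 and 149.6 with TAC in dKO. Its high value in dKO sham came from replicate 1. The estimate for TAC in dKO was -0.74 ± 0.31 (edgeR adjusted p = 0.151), and without the libraries with a length trend it was -0.22 ± 0.20.

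**Figure D4:**
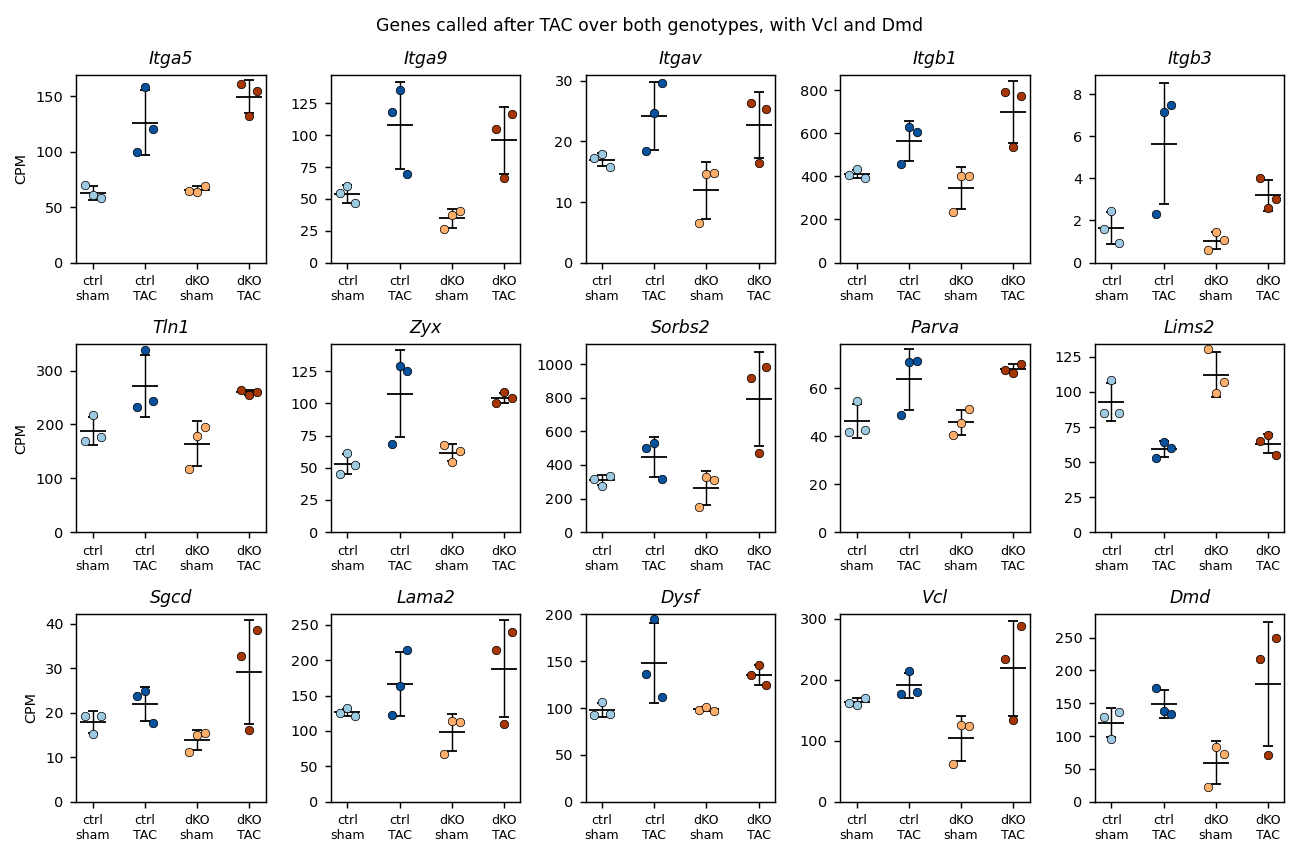
CPM of the 13 genes called after TAC over both genotypes, and of Vcl and Dmd, in each library (points), with group mean (line) and SD (bars, n = 3), on axes that start at 0. Itga5 is higher in all TAC libraries than in all sham libraries and Lims2 is lower in all of them, while Sgcd, Lama2, Sorbs2, Vcl and Dmd have 1 low dKO TAC library, replicate 2.

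The actin linkers connect integrin tails to filaments. Talin 1 (Tln1), which activates integrins, had 169, 218 and 177 CPM with sham and 233, 338 and 244 with TAC in control, and 118, 179 and 196 with sham and 265, 255 and 259.8 with TAC in dKO. TAC libraries were higher in each genotype without overlap, and it rose 1.51-fold over both (log2 0.60 ± 0.16, edgeR adjusted p = 0.0229). Talin 2 (Tln2), the muscle-enriched form, had 105, 99.02 and 113 CPM with sham and 111, 104 and 85.6 with TAC in control, and 58.6, 88.4 and 83.4 with sham and 98.4, 85.2 and 109 with TAC in dKO. Its TAC estimates were -0.07 ± 0.19 in control and 0.34 ± 0.19 in dKO, with edgeR adjusted p of 0.913 and 0.254.

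Zyxin (Zyx), a LIM protein recruited to strained actin, had 45.5, 61.1 and 52.2 CPM with sham and 68.6, 129 and 125 with TAC in control, and 67.8, 54.8 and 63.1 with sham and 100.5, 109 and 104 with TAC in dKO. The 6 TAC libraries lay above all 6 sham libraries, the lowest only just, at 68.6 against 67.8 CPM. It rose by a log2 of 1.02 ± 0.23 in control (edgeR adjusted p = 0.04) and 0.89 ± 0.16 over both genotypes (adjusted p = 0.00378), with 0.75 ± 0.22 in dKO (adjusted p = 0.0601). The call in control was kept in 8 of 19 alternatives (edgeR adjusted p up to 0.193), and that over both genotypes in all 18. Sorbs2, an adaptor of Z-discs and costameres, had 318, 276 and 336 CPM with sham and 503, 531 and 314 with TAC in control, and 147, 329 and 311 with sham and 921, 469 and 986 with TAC in dKO. Replicates 1 and 3 of dKO TAC were the highest of the 12, and replicate 2 lay within the control TAC range. It rose 3.02-fold in dKO (log2 1.59 ± 0.35, edgeR adjusted p = 0.0211), and by 1.06 ± 0.25 over both genotypes (adjusted p = 0.0129). Without the libraries with a length trend the dKO value was 1.57 ± 0.24 (adjusted p = 0.00669).

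Vinculin (Vcl), which reinforces the talin link, had 162, 158 and 170.5 CPM with sham and 177, 215 and 180.0 with TAC in control, and 61.7, 127 and 125 with sham and 235, 135 and 288 with TAC in dKO. All dKO sham libraries lay below, and 2 of the 3 dKO TAC libraries above, the 6 control libraries. The estimate for TAC in dKO was 1.07 ± 0.30, just outside the threshold (edgeR adjusted p = 0.0507). Without the libraries with a length trend it was 1.05 ± 0.14 (adjusted p = 0.00482), and with the length trend removed 0.91 ± 0.21 (adjusted p = 0.0191). In control it was 0.22 ± 0.30 (edgeR adjusted p = 0.797). Exons of Ap3m1 on the other strand overlap 2090 nt of Vcl, and the sources used here do not say whether counting used strand. Smaller overlaps of this kind touch Sorbs2 (1051 nt), Itgav (634), Lama2 (631), Dysf (457), Itga8 (372), Tln1 (360), Zyx (236), Lims2 (188) and Itga7 (9). Kindlin-2 (Fermt2), Tns1 and the linker plectin (Plec) did not pass, with TAC estimates of -0.05, -0.33 and 0.32 in control and 0.45, 0.32 and 0.41 in dKO.

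Integrin-linked kinase (Ilk), a pseudokinase, forms a platform with PINCH proteins (Lims1, Lims2) and parvins (Parva, Parvb). Lims2 had 85.1, 108 and 84.7 CPM with sham and 53.02, 64.2 and 59.9 with TAC in control, and 130.3, 99.4 and 107 with sham and 65.1, 69.05 and 55.4 with TAC in dKO. All 6 TAC libraries lay below all 6 sham libraries. It fell over both genotypes (log2 -0.74 ± 0.12, edgeR adjusted p = 0.00234) and in dKO (-0.83 ± 0.17, adjusted p = 0.0166), with an estimate of -0.65 ± 0.17 in control (adjusted p = 0.077). Its close relative Lims1 had estimates of -0.05 ± 0.22 in control and 0.08 ± 0.22 in dKO, neither past the test.

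Parva, which binds actin, had 41.9, 54.4 and 42.4 CPM with sham and 48.8, 70.9 and 71.1 with TAC in control, and 40.5, 45.5 and 51.1 with sham and 67.6, 66.5 and 70.1 with TAC in dKO. It rose 1.43-fold over both genotypes (log2 0.52 ± 0.13, edgeR adjusted p = 0.0188), and the dKO groups did not overlap. Ilk itself had 67.5, 81.8 and 66.3 CPM with sham and 79.2, 104 and 93.2 with TAC in control, and 113, 70.6 and 83.2 with sham and 83.5, 108 and 77.4 with TAC in dKO. Its groups overlapped, and its estimates were 0.36 ± 0.21 in control and 0.01 ± 0.21 in dKO (edgeR adjusted p = 0.43 and 0.975). Exons of Taf10 and Rrp8 on the other strand overlap Ilk by 2461 nt, summed over both, beside an exon length of 2744 nt for Ilk. If counting did not use strand, the values of Ilk could hold many reads of these genes. Of the signalling proteins of adhesions, paxillin (Pxn), focal adhesion kinase (Ptk2), Src and p130Cas (Bcar1), 0 of 4 passed in any comparison with edgeR or with DESeq2. At an unadjusted p under 0.05 stood Src for TAC in control and over both genotypes, and Pxn for genotype over both surgeries. Src passed over both genotypes when control TAC replicate 1 was left out (edgeR adjusted p = 0.0296). Their TAC estimates ran from 0.16 to 0.81 in control and from -0.17 to 0.48 in dKO, with Src highest in both.

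**Figure D5:**
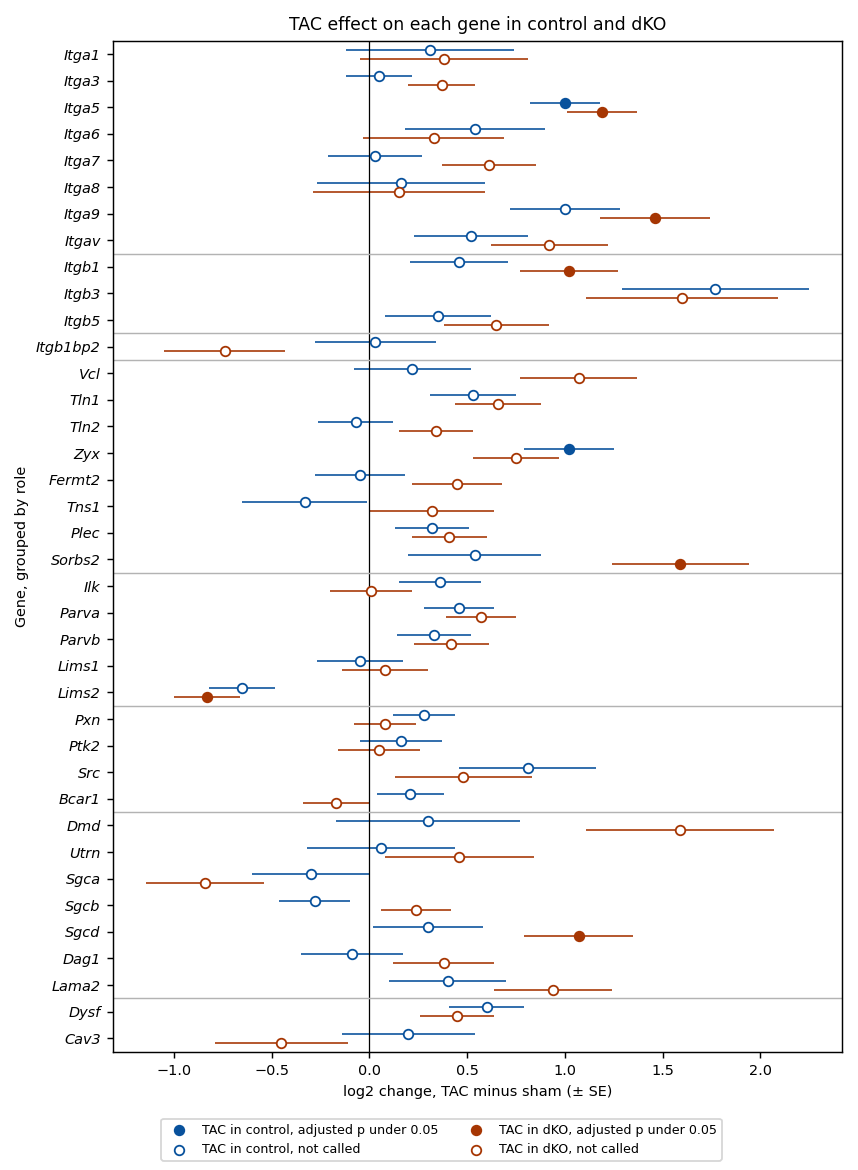
Log2 change after TAC (± SE) of each of the 38 genes in control (blue) and dKO (brown), grouped by role, filled where the edgeR adjusted p was under 0.05. Itga5 is filled in both genotypes, Zyx in control, and Itga9, Itgb1, Sorbs2, Lims2 and Sgcd in dKO.

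The dystrophin complex anchors the membrane to laminin. Dmd, the long actin-binding rod of the complex, had 129, 94.9 and 137 CPM with sham and 173, 138 and 134 with TAC in control, and 21.9, 83.4 and 73.3 with sham and 217, 71.8 and 249 with TAC in dKO. In each dKO group the library with a length trend was the lowest, at 21.9 CPM after sham and 71.8 after TAC. TAC in dKO had an estimate of 1.59 ± 0.48 with all libraries (edgeR adjusted p = 0.0638), 1.57 ± 0.20 without the 2 (adjusted p = 0.0035) and 1.20 ± 0.26 with the length trend removed (adjusted p = 0.0163). In control it was 0.30 ± 0.47 (adjusted p = 0.837). Utrophin, its relative, had 77.6, 108 and 93.97 CPM with sham and 90.1, 106 and 95.7 with TAC in control, and 23.3, 82.6 and 78.2 with sham and 102, 53.2 and 98.6 with TAC in dKO. The estimates for Utrn were 0.06 ± 0.38 in control and 0.46 ± 0.38 in dKO, and neither passed (edgeR adjusted p = 0.968 and 0.453).

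Delta-sarcoglycan (Sgcd), a subunit of the membrane-spanning sarcoglycan group, had 19.3, 15.2 and 19.4 CPM with sham and 23.7, 24.8 and 17.6 with TAC in control, and 11.2, 14.9 and 15.4 with sham and 32.9, 16.2 and 38.6 with TAC in dKO. It rose 2.10-fold in dKO (log2 1.07 ± 0.28, edgeR adjusted p = 0.0406), and had 1.23 ± 0.19 without the libraries with a length trend (adjusted p = 0.00717). The call in dKO was kept in 9 of 19 alternatives, with edgeR adjusted p up to 0.158. Over both genotypes it rose 1.60-fold (log2 0.68 ± 0.20, edgeR adjusted p = 0.0357), a call kept in 8 of 18 (adjusted p up to 0.0884). Alpha-sarcoglycan (Sgca), a short transcript, had 126, 96.5 and 129.9 CPM with sham and 114, 88.9 and 83.7 with TAC in control, and 277, 121 and 109 with sham and 92.99, 97.1 and 93.2 with TAC in dKO. The dKO sham mean was set by replicate 1, and the estimate for TAC in dKO was -0.84 ± 0.30 with all libraries and -0.30 ± 0.18 without the 2, with edgeR adjusted p of 0.105 and 0.306. Beta-sarcoglycan (Sgcb) had -0.28 ± 0.18 in control and 0.24 ± 0.18 in dKO.

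Dag1, whose product binds laminin outside and dystrophin inside the cell, had 430.4, 392 and 441 CPM with sham and 438, 391 and 356 with TAC in control, and 262, 400.0 and 368 with sham and 486, 275 and 579.5 with TAC in dKO. Control TAC replicates 2 and 3 lay below all control sham libraries and replicate 1 within their range. TAC estimates were -0.09 ± 0.26 in control and 0.38 ± 0.26 in dKO (edgeR adjusted p = 0.921 and 0.359). Lama2, the laminin chain that dystroglycan and Itga7 bind, had 125, 132 and 122 CPM with sham and 123, 163 and 214 with TAC in control, and 67.9, 114 and 112 with sham and 214, 109.8 and 239 with TAC in dKO. Over both genotypes it rose 1.59-fold at the edge of the threshold (log2 0.67 ± 0.21, edgeR adjusted p = 0.0497). In dKO it had 0.94 ± 0.30 (adjusted p = 0.0752), and 1.003 ± 0.21 without the libraries with a length trend (adjusted p = 0.0209).

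Dysferlin (Dysf), which reseals torn membrane, had 93.04, 106 and 93.2 CPM with sham and 136, 196 and 112 with TAC in control, and 98.4, 102 and 96.7 with sham and 135, 146 and 124 with TAC in dKO. TAC lay above sham without overlap in each genotype, and it rose 1.44-fold over both (log2 0.53 ± 0.14, edgeR adjusted p = 0.023). Cav3, which shapes muscle caveolae, had 55.8, 44.8 and 53.2 CPM with sham and 65.1, 65.8 and 45.5 with TAC in control, and 124, 50.2 and 46.6 with sham and 43.4, 72.2 and 45.95 with TAC in dKO. The value of 124 CPM in dKO sham replicate 1 had no match in any other library. Its TAC estimates were 0.20 ± 0.34 in control and -0.45 ± 0.34 in dKO, with edgeR adjusted p of 0.852 and 0.415.

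Fibroblast markers moved with TAC too: of 15, 8 rose and 1 fell over both genotypes, and Postn rose by a log2 of 4.96 ± 0.60. Of 13 macrophage and leukocyte markers measured 4 rose, of 15 endothelial markers 0 rose and Ly6c1 fell, and of 15 cardiomyocyte markers 4 fell (edgeR). Of 15 pericyte and smooth muscle markers Tagln and Cnn1 rose and Kcnj8 and Abcc9 fell. Their sum was 3248 to 3361 CPM (sham) and 3684 to 4665 (TAC) in control, without overlap, and 3269 to 5125 (sham) and 5062 to 5599 (TAC) in dKO, with overlap. Desmin (Des), also on the list of genes around the dystrophin complex, made up a large part of this sum. It averaged 1775 CPM (sham) and 2930 (TAC) in control, and 2724 and 4413 in dKO. The median log2 change of the 15 markers was -0.04 over both genotypes, so the sum does not speak for the list. Summed macrophage and leukocyte markers lay at 161 to 351 CPM (sham) and 229 to 770.3 (TAC) in control libraries and at 254 to 316 (sham) and 279 to 519 (TAC) in dKO libraries. None of the 15 fibroblast markers was at 0. The part of these other cell types in the values of the 38 genes was not tested. Control TAC replicate 1 had a summed fibroblast level of 1684 CPM, inside the control sham range, but 136 CPM of Postn, against 23.6 to 48.6 in control sham. In that library Itga5 (99.9 CPM), Itga9 (118), Itgav (18.4), Itgb1 (459) and Tln1 (233) were above all control sham libraries. So were Zyx (68.6), Sorbs2 (503), Sgcd (23.7) and Dysf (136). Lims2 (53.0) was below all of them, while Itgb3 (2.32), Parva (48.8) and Lama2 (123) lay within the control sham range. These are values of a single library, which was itself part of the tests that called these genes. What the values owe to other cell types was not tested.

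The counts of genes called rested on single libraries, among the 38 as over all genes. Of the 13 called over both genotypes, Itga5, Itga9, Itgb1, Itgb3, Lims2, Zyx and Sorbs2 stayed called under all 18 alternatives run. The count was 7 without control sham replicate 1, control sham replicate 3 or control TAC replicate 2, and 8 without dKO TAC replicate 1. Over all genes the 2444 calls became 1404, 1322, 1381 and 1366 in these settings. Of the other 6, the call was kept in 14 of 18 alternatives for Tln1 and Parva, 13 for Dysf, 11 for Itgav, 8 for Sgcd and 6 for Lama2.

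In dKO the 6 calls became 1 without dKO TAC replicate 1 or 3, and 2 when only the dKO libraries were fitted, while the 1087 calls over all genes became 210, 306 and 647. In control the 2 calls became 0 without control sham replicate 1, control sham replicate 3 or control TAC replicate 2, and 0 when only the control libraries were fitted. Over all genes the 331 calls became 2, 3, 14 and 2 in these settings. The 2 calls became 5 without dKO sham replicate 1, and 1 without control TAC replicate 3, dKO sham replicate 2 or 3, or any 1 dKO TAC library. Over all genes these settings gave 723 calls without dKO sham replicate 1 and 109 to 253 in the others.

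The next question was whether loss of the MRTFs changed these genes. In unloaded hearts 0 of 38 passed (edgeR, adjusted p under 0.05), beside 0.068% of all genes, with 2 at an unadjusted p under 0.05 and 0 with DESeq2. Those at an unadjusted p under 0.05 were Itga9 (log2 -0.63 ± 0.27) and Tln2 (-0.46 ± 0.19). The median estimate was -0.20, and 25 of 38 were negative, beside a median of 0.017 and 51.5% positive estimates over all genes. Both values for the 38 include dKO sham replicate 1, where 17 of the 18 genes with at least 8000 nt of exon were low. They are given with all libraries only. Groups did not overlap for 7 genes (beside 18.7% of all genes, 9.42% in the lower direction), all lower in dKO: Itga9, Itgav, Vcl, Tln2, Fermt2, Dmd and Lama2. The share of the 38 without overlap was near that of all genes. The 4 genes with a CArG box in the promoter window are among the 7, and none passed (edgeR adjusted p from 0.507 to 0.584). Only 28 of the 38 had a window, and the matching share over all genes with a CArG box was not determined. A link of the box to these values was not tested. Vcl, Dmd and Lama2 also have at least 8000 nt of exon. The 4 genes had estimates of -0.65 ± 0.30 for Vcl, -0.44 ± 0.23 for Fermt2, -1.01 ± 0.47 for Dmd and -0.36 ± 0.30 for Lama2. Without the libraries with a length trend these were -0.38 ± 0.13, -0.22 ± 0.12, -0.62 ± 0.18 and -0.16 ± 0.19, smaller in each case. After TAC the 4 genes were not lower in dKO. Their mean CPM there was 1.149-, 1.045-, 1.21- and 1.126-fold that of control, in the same order, and the groups overlapped.

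Under overload 0 of 38 passed as well (edgeR), beside 0.428% of all genes, with 2 at an unadjusted p under 0.05 and 1 with DESeq2. Itga7 had the largest estimate, log2 0.87 ± 0.25 (edgeR adjusted p = 0.201, DESeq2 adjusted p = 0.0403), with no overlap between 128 to 233 CPM in control TAC and 311 to 396 in dKO TAC. Sorbs2 was next among the positive estimates, at 0.82 ± 0.35 (edgeR adjusted p = 0.508). Without the libraries with a length trend Sorbs2 passed, at 1.09 ± 0.21 (adjusted p = 0.0275), and Itga7 had 0.77 ± 0.21 (adjusted p = 0.0857). The lowest estimate was that of Itgb3, -0.82 ± 0.46. Itga1, Itga6, Itgb1bp2 and Ptk2 were lower in dKO without overlap, so that 5 genes in all did not overlap, beside 17.6% of all genes.

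Averaged over both surgeries 0 of 38 passed for genotype (edgeR, beside 0.585% of all genes), with 2 at an unadjusted p under 0.05, Itga7 (0.58 ± 0.17) and Pxn (-0.25 ± 0.11), and 0 with DESeq2. The smallest edgeR adjusted p was 0.204, for Itga7. In simulated counts edgeR recovered 26% of 2-fold changes for genotype in sham, 30% in TAC and 65% over both surgeries. The 0 calls for genotype thus do not show that such changes were absent. Srf, which encodes serum response factor, had 80.8 to 114 CPM in control and 52.1 to 85.2 in dKO, with a genotype estimate of -0.61 ± 0.13 over both surgeries (edgeR adjusted p = 0.0551).

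Whether the response to TAC depended on genotype was tested as an interaction, the change after TAC in dKO less the change in control. It passed for 0 of 38 genes and 0 of all 14712 (edgeR, 0% called). At an unadjusted p under 0.05 stood 0 of the 38 and 697 of all genes, and DESeq2 called 0 and 8. The largest estimates were 1.29 ± 0.67 for Dmd, 1.06 ± 0.49 for Sorbs2 and 0.85 ± 0.42 for Vcl, and the lowest was -0.77 ± 0.44 for Itgb1bp2. Without the libraries with a length trend they were 1.27 ± 0.26, 1.04 ± 0.30, 0.83 ± 0.18 and -0.24 ± 0.25, with edgeR adjusted p of 0.111, 0.196, 0.131 and 0.703. A call in 1 genotype and not in the other does not show that the genotypes differ. In simulated counts the interaction test recovered 6% of 2-fold and 54% of 4-fold changes, so 0 calls do not show that the responses were alike.

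Ratios between relatives, per length and within a library, do not depend on library scaling. Their absolute size does depend on the annotated exon lengths. No length trend was removed from them, and they are given with all libraries. The ratio of Tln1 to Tln2 averaged 3.37 ± 0.656 (SD, n = 3) with sham and 5.11 ± 1.10 with TAC in control, and 3.99 ± 0.356 with sham and 5.04 ± 0.569 with TAC in dKO. The dKO sham and dKO TAC ranges, 3.78 to 4.40 and 4.48 to 5.61, did not overlap, and the control ranges, 2.95 to 4.12 and 3.92 to 6.08, did. The ratio of Itga5 to Itga7 was 0.471 to 0.625 with sham and 0.799 to 1.54 with TAC in control, and 0.357 to 0.608 with sham and 0.550 to 0.818 with TAC in dKO. Its control groups were apart. Its dKO groups overlapped through dKO TAC replicate 2 (0.550), a library with a length trend. The other dKO TAC libraries, at 0.797 and 0.818, lay above all dKO sham libraries. The ratio of Utrn to Dmd ran from 1.38 to 1.48 with sham and from 0.551 to 1.03 with TAC in dKO, against 0.835 to 1.59 and 0.725 to 1.06 in control. The dKO ranges were thus apart while the control ranges overlapped. The ratio of Parva to Parvb had means between 0.195 and 0.245 in the 4 groups, and its group ranges overlapped after TAC and sham.

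Other genes of the same structures were read from lists chosen by function. Of 33 further adhesion adaptors tested, 10 rose and 0 fell after TAC over both genotypes (edgeR), among them the Z-disc filamin Flnc (log2 1.17 ± 0.16, from 352 to 723 CPM in control and from 297 to 734 in dKO), Enah (1.21 ± 0.16), Actn1 (1.26 ± 0.25) and Pdlim5 (0.89 ± 0.15). Flnc passed in each genotype. Of 9 other integrin and integrin-like genes, Itga4, Itga11 and the integrin beta-like gene Itgbl1 rose and Itgb6 fell. Of 5 leukocyte integrins tested Itgam, Itgax and Itgb2 rose, beside the 4 of 13 leukocyte markers.

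Of 15 laminins and basement membrane genes tested, Lamb1, Lamc1, Nid2, Col4a1, Col4a2 and Fn1 rose over both genotypes. Fibronectin (Fn1), the ligand of the Itga5 receptor, rose by 2.76 ± 0.64. Of 13 further genes around the dystrophin complex 1 rose, the keratin Krt18 (1.57 ± 0.47), and 0 fell. Of 12 enzymes that glycosylate dystroglycan Pomgnt2 fell (-0.65 ± 0.15). Of 18 caveolar and membrane repair genes 6 rose, among them Anxa1 (1.37 ± 0.27), Anxa5 (0.74 ± 0.14) and the dysferlin relative Myof (1.41 ± 0.35), and Ehd1 fell. In these lists 0 genes passed for genotype or for the interaction (edgeR).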

How the data were processed

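Poly(A) RNA (200 ng per library) was sequenced with a stranded kit as single 100 nt reads, per the labels' protocols. Trimmomatic 0.36, STAR 2.5.2b, Subread 1.5.0p3, featureCounts and GRCm38.p5 are named in the submitters' processing notes. The sources used here do not give their settings, the annotation, the use of strand or the handling of reads with several matches. The authors deposited 1 table of raw counts per gene, 49568 rows for 12 libraries, of which 21344 held no count.

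Here, genes with low counts were left out (edgeR filterByExpr), which left 14712. Libraries were scaled by TMM, and edgeR 4.0.16 (R 4.3.3) fitted a quasi-likelihood model over the 4 groups, with 8 residual degrees of freedom. P-values were adjusted by Benjamini-Hochberg over all genes tested, with a threshold of 0.05. Comparisons were TAC in each genotype, genotype in each surgery, both averages and the interaction. DESeq2 1.42.0, other scaling, no filter, a fit of the compared groups alone, a replicate block, removal of a length trend, and leaving out libraries were alternatives. Scripts were tested on simulated data.

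The 38 genes and all lists were chosen with earlier results of these data known. Values of every library are given for genes called in any comparison, for genes whose groups did not overlap at an absolute log2 change of at least 0.58, and for Itgb1, Itga7, Vcl, Tln1, Tln2, Ilk, Dmd, Utrn, Dag1 and Cav3. Genes of the other lists are named only where called. All 38 genes matched GENCODE release M21 by gene symbol or a unique synonym, which gave exon lengths as the union of all annotated exons. No 2 libraries held the same counts.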

Additional observations from a re-analysis of the deposited data

How the results depend on the processing

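Of 38 genes, 2 were called for TAC in control, 6 for TAC in dKO and 13 over both genotypes. No gene among the 38 called in any setting changed direction under the alternatives run. With DESeq2 these counts were 6, 14 and 17, and over all genes DESeq2 called 1005 for TAC in control, 2376 for TAC in dKO, 3378 over both genotypes, 62 for genotype in sham, 320 in TAC, 348 over both surgeries and 8 for the interaction, with 1 of the 38 for genotype in TAC. With no filter 4, 12 and 15 of the 38 were called, and 936, 1545 and 2616 genes for the same, 53 for genotype in sham, 129 in TAC, 174 over both surgeries and 5 for the interaction. With only the compared groups fitted, 0 and 2 of the 38 were called in control and dKO, and 2, 647 and 5 genes for TAC in control, TAC in dKO and genotype in sham.

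Without the 2 libraries with a length trend, 4, 10 and 16 of the 38 were called and 1 for genotype in TAC, with 771, 1580 and 3272 genes for TAC in control, in dKO and over both genotypes, 508 for genotype in TAC, 198 over both surgeries and 2 for the interaction. With the length trend removed 4, 9 and 13 of the 38 were called, beside 487, 1501 and 2968 of all genes for TAC, and 16 genes for genotype in sham, 134 in TAC, 140 over both surgeries and 1 for the interaction. The causes were not tested.

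Leaving out each library in turn gave 0 to 5, 1 to 9 and 7 to 15 of the 38 for TAC in control, in dKO and over both genotypes. Over all genes it gave 2 to 1130, 210 to 1389 and 1322 to 3074 for these, 5 to 12 for genotype in sham, 8 to 252 in TAC, 38 to 153 over both surgeries and 0 to 1 for the interaction. The 0 calls of genotype in sham, over both surgeries and of the interaction among the 38 stayed 0 in each of these.

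Equal replicate numbers were not taken as pairs: the correlation of deviations of same-numbered libraries ran from -0.677 to 0.519, and the labels name no shared litter or day. The libraries with a length trend enter these correlations, and deviations within a group depend on each other. The correlations therefore cannot decide whether libraries were paired. With the replicate number as a block, 1, 5 and 11 of the 38 were called, beside 252, 937 and 2205 of all genes for TAC, and 41 genes for genotype in TAC. Itgb3, Itga8 and Src had under 10 CPM in every library, and 3 libraries a group limit all tests.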
